A study of Mus musculus with 2 samples.

Results

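Gene expression of the nuclear-encoded respiratory chain was examined in cells sorted as astrocytes from the ipsilateral cortices of mice after middle cerebral artery occlusion (MCAO), a model of focal cerebral ischemia. Members were all genes whose platform symbol starts with Nduf, Uqcr, Cox4 to Cox8, Atp5 or Sdha to Sdhd (Sdhaf names included), together with Cyc1 and Cycs. This name rule gave 99 of the 19494 genes with a named probe set, 87 of them subunits and 12 assembly factors of complexes I and II, and each was read by 1 probe set.

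All mice were males of the C.B-17/Icr-+/+Jcl strain, 7 weeks of age at MCAO. All had been trained on a running wheel before MCAO and had been given BrdU, a label of dividing cells, in the first days after it. The MCAO + exercise group then had a running wheel until postoperative day (POD) 15, and the MCAO + non-exercise group had none. On POD15 the cells were selected with an antibody against ACSA-2, an astrocyte surface antigen, and magnetic beads, RNA of 4 extracts was mixed into a pool for each group, and each pool was measured on 1 Clariom S array. With 1 array of pooled RNA per group, no spread between animals or extracts was measured, so no difference was tested and no value has an error.

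The respiratory chain sits in the inner mitochondrial membrane. Complexes I and II pass electrons from NADH and succinate to ubiquinone, complex III passes them to cytochrome c, complex IV passes them to oxygen, and complex V, the ATP synthase, uses the proton gradient built by complexes I, III and IV to make ATP. Most subunits are encoded in the nucleus and imported, while a small set in the catalytic centres and proton channels is encoded by mitochondrial DNA, and assembly factors help to build the complexes without staying in them. Astrocytes are known for a high rate of glycolysis, but they also hold many mitochondria and oxidize fatty acids and glutamate.

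Most subunits had higher signal in MCAO + exercise. Differences are given on the log2 scale of intensity, as MCAO + exercise minus MCAO + non-exercise. This direction follows the deposited labels and is opposite to that of the study's own gene lists for every member found there, namely Cox6a1, Cox6c, Ndufb9, Cox8a, Cox4i1, Cox5b and Atp5md (listed under an older name). The same held for other genes of those lists, such as Aldoc, Slc1a3, Mobp, Camk2a and Alcam. For each of these named genes the size of the difference was the same as in the lists, and only the sign was opposite. The study also lists Lcn2 as lower with exercise. It reports the same direction for Lcn2 by qPCR, as a tendency, and by protein staining in GFAP-positive astrocytes. Whether the labels or the lists have the right direction was not settled by the files. If the labels of the 2 arrays were exchanged, every direction given here would turn. A gene was kept when it was above background, the 25th percentile of the named probe sets, on at least 1 array, which left 15196 genes and 97 members. Of these 97 members, 84 were higher and 13 were lower in MCAO + exercise, while 53.5% of all kept genes were higher. The median difference of the members was 0.52, with quartiles of 0.15 and 0.81, and the median of all kept genes was 0.04. A difference above 1, the threshold of the study, was found for 13 members (13.4%), against 3.77% of all kept genes. A difference under -1 was found for 1 member, Cox8c, against 2.36% of all kept genes. The members in the study's lists were picked on these arrays, so they are no independent evidence of a shift. Among the 90 kept members outside the lists, 77 were higher, 6 of them past 1, with a median of 0.49. The study removed genes below a negative control, a filter that was not repeated here. With the filter used here, 573 kept genes were higher and 359 lower by more than 1, far more than the study lists. Listed members were at 11.48 or more in MCAO + non-exercise, and the 6 others past 1 at 10.51 or less. Absence from the lists therefore does not make a difference a new one. Of the 86 kept subunits 78 were higher, with a median of 0.57, while the 11 kept assembly factors had a median of 0.12. The arrays were also rescaled in 3 ways, by median centring, by quantile normalization and by a loess correction for signal level, after which 72, 69 and 69 of the 86 subunits were higher.

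**Figure D1:**
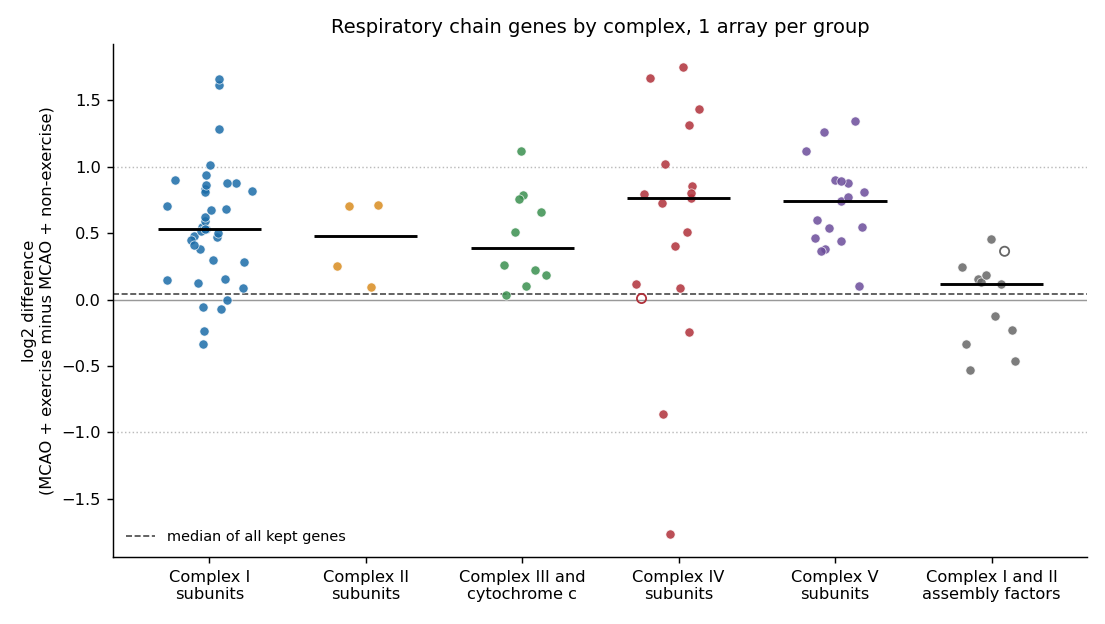
Log2 difference (MCAO + exercise minus MCAO + non-exercise, vertical axis) of each member, by complex (horizontal axis), with filled points for kept members, open points for the 2 members below background on both arrays, black bars for medians of the kept members, dotted lines at 1 and -1 and a dashed line at the median of all kept genes (0.04). The medians of complexes IV (0.76) and V (0.74) were the highest, complex V had no point under 0 as deposited (Atp5g2 turned lower after rescaling), and the assembly factors lay on both sides of 0.

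The sorted pools also held RNA of other cell types, and their markers differed between the arrays. All 12 astrocyte markers were above background on both arrays and higher in MCAO + exercise (11 of 12 after each of the 3 rescalings), with a median difference of 1.02 and a summed intensity of 139338 in MCAO + non-exercise and 214671 in MCAO + exercise. Of the 14 neuron markers 13 were kept and 11 of these were higher, with a median of 0.89 and sums of 14744 and 49654, and Nefm, a neurofilament gene, was not above background on either array. Camk2a alone carried most of the difference in the neuron sum, which was 10481 and 12400.2 without it, and the synaptic gene Syt1 (-1.60) and the GABA-synthesis gene Gad1 (-1.04) were lower by more than 1. All 9 measured oligodendrocyte markers were higher, with a median of 0.82 and sums of 769288 and 1315720. Microglia markers had a median of -0.28, with 3 of 10 higher and sums of 1149358 and 985470, and none of 10 endothelial markers was higher, with a median of -0.27 and sums of 157351 and 126870. The marker lists of astrocytes, neurons and oligodendrocytes therefore moved in the same direction as the subunits, and those of microglia and endothelium in the other. Their part in the differences of the respiratory chain was not tested. In such pools a different share of cells of one type and a different amount of RNA per cell cannot be told apart.

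Promoters are shown for 3 members with a difference above 1 and with motif letters near the start, chosen after their values were seen, and for Cox7b2, a testis isoform that was above background only in MCAO + non-exercise. Sequences are from RefSeq (GRCm38.p6), on the strand of the gene, from 180 bases before the transcription start to 20 bases from it, and capitals mark matches on either strand to GCGCATGCG, which nuclear respiratory factor 1 (NRF1) binds, or CCGGAAG, which ETS factors such as GA-binding protein (GABP) bind.
Cox6a1, chr5:115348939-115349138, minus strand: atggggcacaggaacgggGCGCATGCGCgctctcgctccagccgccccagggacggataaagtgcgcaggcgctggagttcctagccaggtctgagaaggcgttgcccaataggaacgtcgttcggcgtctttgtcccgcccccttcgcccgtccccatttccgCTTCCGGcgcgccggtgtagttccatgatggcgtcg
Cox8a, chr19:7217597-7217796, minus strand: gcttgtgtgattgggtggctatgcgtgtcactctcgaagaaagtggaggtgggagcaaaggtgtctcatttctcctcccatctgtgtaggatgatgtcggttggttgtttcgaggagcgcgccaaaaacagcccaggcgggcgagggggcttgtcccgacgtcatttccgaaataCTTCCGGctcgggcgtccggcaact
Uqcr11, chr10:80406802-80407001, minus strand: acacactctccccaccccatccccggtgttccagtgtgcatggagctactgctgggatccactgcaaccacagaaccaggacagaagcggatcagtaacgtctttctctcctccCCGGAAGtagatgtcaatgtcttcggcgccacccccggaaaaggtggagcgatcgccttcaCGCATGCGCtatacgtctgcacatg
Cox7b2, chr5:71548186-71548385, minus strand: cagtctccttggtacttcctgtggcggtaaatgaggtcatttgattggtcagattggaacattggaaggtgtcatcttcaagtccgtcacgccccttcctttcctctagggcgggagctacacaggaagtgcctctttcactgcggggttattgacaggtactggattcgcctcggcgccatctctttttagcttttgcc
In Cox6a1, the NRF1 letters lay 162 bases before the start on the gene's strand and overlapped a second match on the opposite strand, since the word is nearly its own reverse complement, and the ETS letters lay 16 bases before the start on the opposite strand. In Cox8a the ETS letters lay 5 bases before the start. Uqcr11 had the ETS letters 66 bases and the NRF1 letters 5 bases before the start, and the window of Cox7b2 held neither.

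A promoter window of 300 bases (250 before the start and 50 after it) was available for 82 of the 99 members, and the word AAGATGGC, which YY1 binds, was searched as well on both strands. The NRF1 word was in 11 of the 82 windows (13.4%), against 2.61% of the windows of 17491 protein-coding genes. The ETS word was in 22 (26.8%), against 12.9%, and the YY1 word in 11 (13.4%), against 3.57%. At least 1 of the 3 words was in 38 windows (46.3%), against 17.7%. The ETS word ends with the letters that open the YY1 word, so 1 stretch can match both. A match describes the letters and does not show a bound site. The 22 kept members with the ETS word had a median difference of 0.73, with 6 above 1, and the 58 without it had a median of 0.51, with 4 above 1. A window was available for only 10 of the 13 members above 1. Cox6c, Ndufb9 and Cox4i1 had none, so the split of members above 1 is incomplete. The median was 0.47 over 11 kept members with the NRF1 word (2 above 1) and 0.55 over 69 without it (8 above 1). For the YY1 word it was 0.41 over 11 (2 above 1) and 0.55 over 69 (8 above 1). A link between the words and the differences was not tested.

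Complex I, the NADH dehydrogenase, had 38 measured subunits, and all were kept. Of these, 33 were higher and 5 were lower in MCAO + exercise, and the median difference was 0.53. In the peripheral arm, where NADH is oxidized and electrons run along iron-sulfur clusters to ubiquinone, 12 of 15 subunits were higher, with a median of 0.41. In the membrane arm, which pumps protons, 17 of 19 were higher, with a median of 0.55. Ndufs7, a core subunit that holds the last iron-sulfur cluster before ubiquinone, had log2 intensities of 9.35 in MCAO + non-exercise and 10.63 in MCAO + exercise, a difference of 1.29. It was the only one of the 6 measured core subunits past 1. Ndufv2 (10.19 and 10.89), Ndufs8 (11.13 and 11.81) and Ndufs1 (8.26 and 8.89), which also carry iron-sulfur clusters, differed by 0.70, 0.67 and 0.62. Ndufv1, the subunit that binds NADH and flavin and carries an iron-sulfur cluster as well, was at 11.28 and 11.21, and Ndufs3, a core subunit of the part that binds ubiquinone, was at 11.48 on both arrays. Thus the core subunits did not share a common difference, with 4 of 6 higher, also after each rescaling, and Ndufv1 and Ndufs3 differing by less than 0.1 as deposited.

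Among the accessory subunits, which surround the core, 29 of 32 were higher, 3 of them by more than 1. Ndufb9, an accessory subunit of the LYR family in the membrane arm, was at 13.15 in MCAO + non-exercise and 14.80 in MCAO + exercise, a difference of 1.66. Ndufb6, another membrane arm subunit, was at 7.47 and 9.09, a difference of 1.62, and it is absent from the study's lists. Ndufb4 and its copy Ndufb4b, which have similar sequences and may share signal, were at 11.19 and 12.05 and at 10.51 and 11.53, with differences of 0.86 and 1.02. These 4 probe sets were all brighter in MCAO + exercise. Just under the threshold lay Ndufb8 with 0.94, Ndufa3 with 0.90 and Ndufb5 with 0.88, all in the membrane arm. Ndufv3, an accessory subunit of the NADH-binding part, was above background only in MCAO + exercise, at 5.79, and was at least 1.64-fold higher there. The other accessory subunits of the peripheral arm ranged from 0.81 for Ndufa5 to -0.33 for Ndufa7 (6.40 and 6.07), which was the lowest of complex I. Ndufs5, on the intermembrane side of the membrane arm, was at 9.73 and 9.49, and Ndufb10 differed by -0.06. RefSeq names a pseudogene copy of Ndufs5, Ndufa12 and Ndufab1, and signal of such copies could not be told apart from that of the gene.

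Complex II, the succinate dehydrogenase, has 4 subunits, all encoded in the nucleus, and all were higher in MCAO + exercise, none by more than 1, although Sdhc turned slightly lower after each of the 3 rescalings. Sdha, the flavoprotein that oxidizes succinate, was at 8.33 and 9.03, a difference of 0.70. Sdhb, the iron-sulfur subunit, was at 10.80 and 11.05, a difference of 0.25. The membrane anchors Sdhc (9.83 and 9.92) and Sdhd (8.90 and 9.61) differed by 0.09 and 0.71. The catalytic pair and the anchor pair thus each had a subunit with a difference near 0.7 and a subunit with a smaller one.

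Complex III, the cytochrome bc1 complex, had 9 measured subunits, all of them higher in MCAO + exercise, with a median difference of 0.51, although Uqcrc2 and Uqcrq turned lower after each rescaling. Its redox subunits were Cyc1, cytochrome c1, at 6.86 and 7.37 (0.51), and Uqcrfs1, the Rieske iron-sulfur protein, at 9.12 and 9.78 (0.66). The core proteins Uqcrc1 and Uqcrc2, which face the matrix and resemble processing peptidases, differed by 0.22 and 0.10. The 5 small subunits, which carry no redox centre, had the widest range. Uqcr11 was at 6.06 and 7.18, a difference of 1.12 and the only one of the complex past 1, Uqcr10 was at 8.26 and 9.04 (0.79), and Uqcrh, the hinge protein at the cytochrome c1 side, was at 12.69 and 13.45 (0.76). Uqcrb, which was bright on both arrays (15.12 and 15.30), and Uqcrq (9.81 and 9.85), both of which lie near cytochrome b, differed by 0.18 and 0.03. Cycs, the soluble cytochrome c that carries electrons to complex IV and also triggers apoptosis when released, was at 12.79 and 13.05, a difference of 0.26. Under the platform symbols, RefSeq names 3 pseudogene copies of Cycs and 2 of Uqcrh, and copies under other names were not searched.

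Complex IV, the cytochrome c oxidase, showed both the highest and the lowest difference of all members. Of its 18 measured subunits 17 were kept, 14 were higher and 3 were lower in MCAO + exercise, and the median was 0.76. The 10 widely expressed isoforms, which make up the enzyme in most tissues, were all higher, also after each rescaling, 5 of them by more than 1, with a median of 0.91. All of those 5 are in the study's lists. Cox6a1 was at 15.36 in MCAO + non-exercise and 17.10 in MCAO + exercise, a difference of 1.75 (3.36-fold), the largest of all members. Cox6c was at 13.10 and 14.77 (1.67) and Cox8a at 14.88 and 16.32 (1.43), and both are small subunits that cross the membrane. Cox4i1, the largest nuclear-encoded subunit, was at 11.48 and 12.79 (1.31), and Cox5b, a zinc-binding subunit on the matrix side, at 12.20 and 13.22 (1.02). The other 5 widely expressed subunits stayed under 1. Cox7c, at 16.16 and 16.96, differed by 0.80, Cox7b (11.15 and 11.94) by 0.79, Cox6b1 (10.52 and 11.28) by 0.76, Cox7a2 (9.99 and 10.71) by 0.72 and Cox5a (10.10 and 10.51) by 0.41. Cox7a2l, a factor that joins complexes III and IV into supercomplexes, was at 11.10 and 11.96 (0.85). Ndufa4, which was first assigned to complex I and is now counted with complex IV in human cells, was at 11.33 and 12.16, a difference of 0.83, and with it 11 of 11 widely expressed subunits were higher. RefSeq names a pseudogene copy of Cox5b and of Cox7c.

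Among the tissue isoforms of complex IV, 3 of 6 kept isoforms were higher, the other 3 were lower and their median was -0.08. Most of them were dim, and of all kept genes with a mean log2 level under 8, 42.2% were higher, with a median of -0.10, so this count is near that of dim genes as a whole. Cox8c, a testis isoform of the Cox8 family, was at 7.35 in MCAO + non-exercise and 5.58 in MCAO + exercise, and was 3.40-fold lower there, the lowest difference of all members (-1.76). Cox7b2, another testis isoform, was above background only in MCAO + non-exercise, at 5.56, and was at least 1.58-fold lower in MCAO + exercise. Cox4i2, which is abundant in lung and takes the place of Cox4i1 there, was at 6.28 and 6.03, a difference of -0.24. The muscle isoforms Cox6a2 (9.18 and 9.30) and Cox7a1 (6.98 and 7.07) differed by about 0.1, the testis isoform Cox6b2 (5.76 and 6.27) by 0.51, and the muscle isoform Cox8b, at 4.60 on both arrays, was below background. In every Cox family with a widely expressed and a tissue isoform, the widely expressed one had the higher difference as deposited, sign included. In size, the difference of Cox8c (-1.76) was larger than that of Cox8a (1.43). The order turned for Cox6b1, which was below Cox6b2 after quantile normalization (0.54 and 0.66) and loess (0.57 and 0.65). Ndufa4 differed by 0.83 and Ndufa4l2 (5.44 and 5.92), a relative that is induced by hypoxia, by 0.48, but after quantile normalization these were 0.62 and 0.66.

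**Figure D2:**
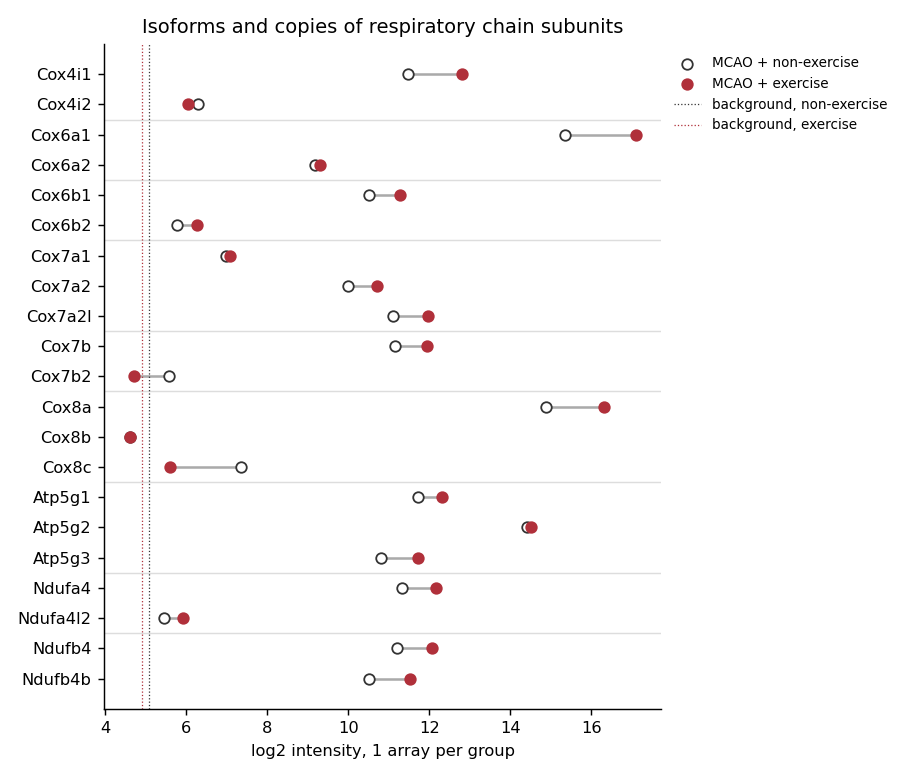
Log2 intensity (horizontal axis) of the members of isoform families and close copies (vertical axis) on the MCAO + non-exercise array (open circles) and the MCAO + exercise array (filled circles), with dotted lines at the background of each array. Cox4i1, Cox6a1 and Cox8a were more than 1 higher in MCAO + exercise, whereas Cox4i2, Cox7b2 and Cox8c were lower, also after each rescaling.

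Complex V, the ATP synthase, was higher in MCAO + exercise in all 17 subunits, with a median difference of 0.74, although Atp5g2 turned slightly lower after each rescaling. In the catalytic F1 part the differences were close to each other. The catalytic beta subunit Atp5b was at 15.04 and 15.42 (0.38) and its partner, the alpha subunit Atp5a1, at 14.79 and 15.23 (0.44). Atp5c1, the gamma subunit of the central shaft, was at 13.14 and 13.69 (0.55), Atp5d, the delta subunit, at 13.41 and 13.87 (0.46), and Atp5e, the epsilon subunit, at 7.06 and 7.80 (0.74). The median of F1 was 0.46, below those of the other parts. Subunit c forms the rotating ring in the membrane and is made from 3 genes that encode the same mature peptide. Atp5g3 was at 10.80 and 11.71 (0.90), Atp5g1 at 11.71 and 12.31 (0.60) and Atp5g2 at 14.41 and 14.51 (0.10), so the 3 genes for 1 peptide differed by unequal amounts.

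The peripheral stalk, which holds F1 still while the ring turns, had a median difference of 0.83. Atp5o, the subunit that joins the stalk to F1, was at 9.63 and 10.88, a difference of 1.26, and Atp5j, coupling factor 6, was at 10.20 and 11.32, a difference of 1.12. Neither is in the study's lists. Atp5h, subunit d of the stalk, was at 14.65 and 15.19 (0.54), and Atp5pb, subunit b, at 10.65 and 11.02 (0.37), so the stalk was not uniform. The 5 small membrane subunits had a median of 0.88. Atp5md, which helps to join ATP synthases into dimers, was at 12.05 and 13.39, a difference of 1.35 and the largest of the complex. The other 4, Atp5mpl (0.89), Atp5l (0.88), Atp5j2 (0.81) and Atp5k (0.77), lay close together. RefSeq names 4 pseudogene copies of Atp5k and 2 of Atp5l. No copy was found under the platform symbols of Atp5md, Atp5o or Atp5j, and copies under other names were not searched.

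**Figure D3:**
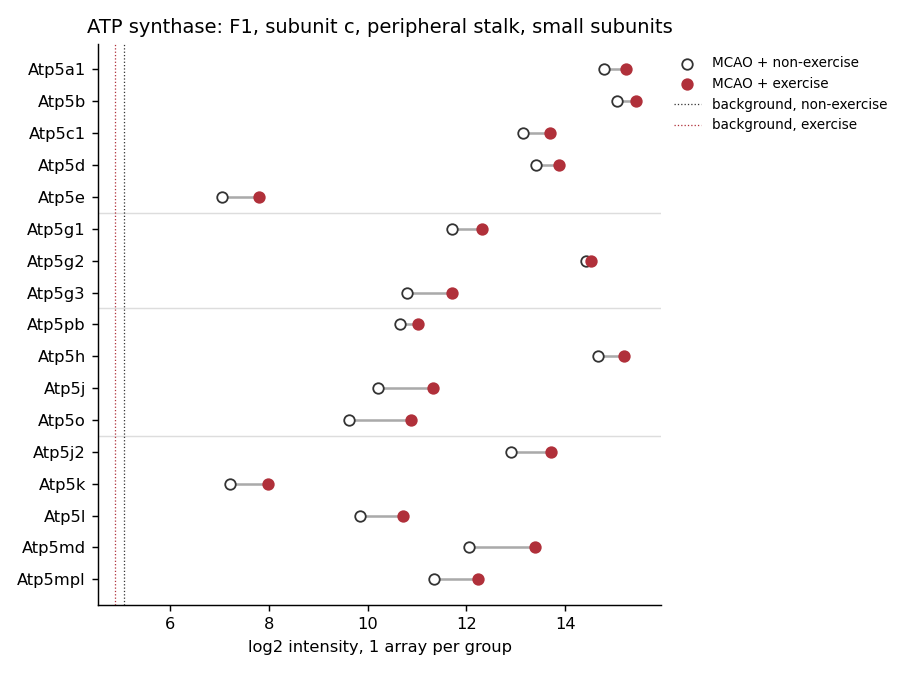
Log2 intensity (horizontal axis) of the 17 subunits of the ATP synthase (vertical axis, from top to bottom F1, subunit c, peripheral stalk and small membrane subunits) on the MCAO + non-exercise array (open circles) and the MCAO + exercise array (filled circles), with dotted lines at the background of each array. All 17 were higher in MCAO + exercise as deposited (Atp5g2 turned lower after rescaling), and the widest gaps were those of Atp5md (1.35), Atp5o (1.26) and Atp5j (1.12).

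As a group, the kept assembly factors had a lower median difference (0.12) than the kept subunits (0.57). Among the 8 factors of complex I, 4 were higher and 4 were lower in MCAO + exercise, and none passed 1 (their median over both complexes was -0.01 after loess). Ndufaf8, a small factor that acts with Ndufaf5, had the lowest difference, with 6.31 and 5.78 (-0.53), and Ndufaf5, an enzyme that modifies Ndufs7, was at 6.49 and 6.67 (0.19). Ndufaf2, a paralog of Ndufa12, was at 7.08 and 6.62 (-0.46), while Ndufa12 was at 12.85 and 13.23 (0.38). The factors of complex II were led by Sdhaf2, which helps to attach flavin to Sdha, at 8.28 and 8.73 (0.45), followed by Sdhaf1 (0.24) and Sdhaf3 (-0.23), both of which serve Sdhb, and Sdhaf4 was below background on both arrays. A further 32 kept assembly factors outside the name rule gave a like picture, with 20 higher, 12 lower, none past 1 and a median of 0.08, but 15 higher, 17 lower and a median of -0.03 after median centring. Their highest difference was that of Uqcc2, a factor for cytochrome b, at 9.13 and 10.09 (0.95), and the lowest among those above background on both arrays was that of Lyrm7, a factor for the Rieske protein, at 7.58 and 6.75 (-0.83). Coa4, a factor of complex IV, was above background only in MCAO + non-exercise, at 5.33, and was at least 1.35-fold lower in MCAO + exercise. The kept factors named by the rule had mean log2 levels from 6.03 to 8.88, and dim genes as a whole had lower differences on these arrays. Of these factors 54.5% were higher, against 53.5% of all kept genes. Of kept genes with a mean log2 level under 8, 42.2% were higher, with a median of -0.10.

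The difference depended on signal level among all genes, so the members were also read against genes of like level. Kept genes with a mean log2 level of at least 8 had a median difference of 0.16, and 65.3% of them were higher in MCAO + exercise, 4.94% by more than 1. Kept genes with a lower mean had a median of -0.10. Among the 71 subunits with a mean level of at least 8, 68 were higher, 12 by more than 1 (16.9%), and the median was 0.62. Of the 15 kept subunits with a lower mean level, 10 were higher and the median was 0.51. Across the 86 kept subunits, mean level and difference had a Pearson r of 0.35 and a Spearman rho of 0.25, and without the tissue isoforms and Ndufa4l2 (79 subunits) these were 0.20 and 0.13. Across all 15196 kept genes they were 0.24 and 0.28. These are descriptions across genes read on the same 2 arrays, and the mean level shares its 2 values with the difference.

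**Figure D4:**
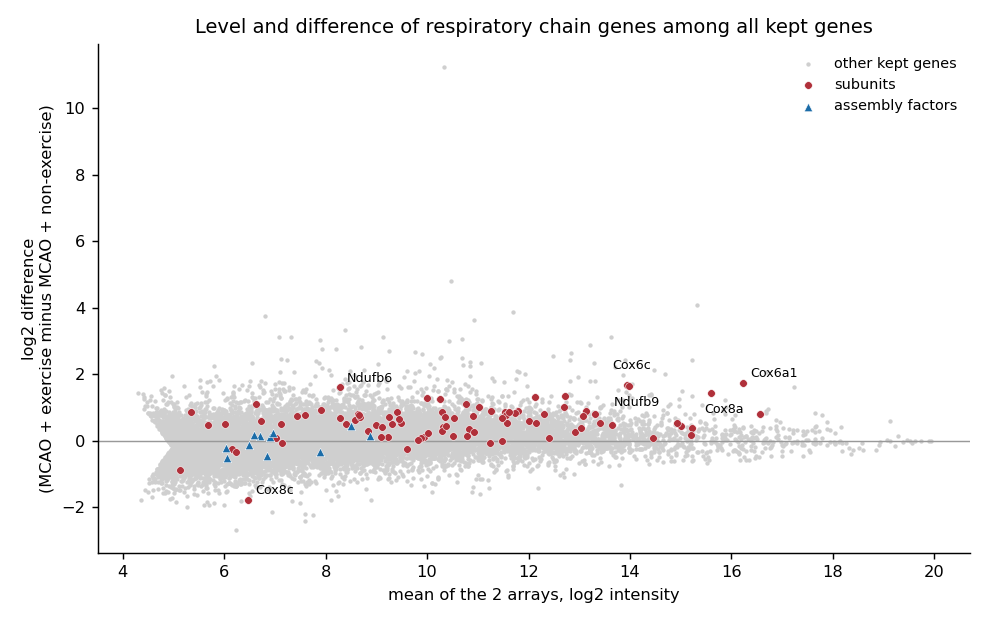
Log2 difference (MCAO + exercise minus MCAO + non-exercise, vertical axis) against the mean log2 intensity of both arrays (horizontal axis) for all 15196 kept genes (grey), the 86 kept subunits (red circles) and the 11 kept assembly factors (blue triangles), with members past 1.4 in size named. Most subunits lay above 0 at mean levels of at least 8 (68 of 71), Cox6a1 (1.75) and Cox8c (-1.76) were the extremes, and the assembly factors clustered at low levels.

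Other mitochondrial genes were compared by their own lists. The 13 subunits encoded by mitochondrial DNA were not analysed here. In the citric acid cycle, which feeds electrons to complexes I and II, 13 of 15 kept genes were higher in MCAO + exercise, with a median of 0.43 (0.33 after median centring, 0.22 after quantile normalization and 0.25 after loess), and Pdha1, a subunit of pyruvate dehydrogenase at the entry of the cycle, was the only one past 1, with 7.39 and 8.40 (1.01, and 0.90 to 0.95 after the 3 rescalings). All 7 genes for the exchange of ADP, ATP and phosphate were higher (6 after quantile normalization and loess), with a median of 0.27 (0.14 to 0.18 after the rescalings), and the ADP/ATP carrier Slc25a4 was at 13.36 and 14.25 (0.89). Among 13 regulators of mitochondrial gene expression, 8 were higher (61.5%, against 53.5% of all kept genes). Their median was 0.15 (0.04 after median centring, 0.30 after quantile normalization and 0.29 after loess). Gabpb1, a subunit of the GA-binding protein whose letters are shown above, was at 8.74 and 9.81 (1.07, and 0.91 to 0.97 after the 3 rescalings), and its DNA-binding partner Gabpa was at 11.05 and 11.09 (0.04). Ppargc1a, a coactivator that drives mitochondrial biogenesis, was at 9.07 and 9.71 (0.64), Yy1 at 11.25 and 11.90 (0.65), Tfam, which packages and transcribes mitochondrial DNA, at 7.10 and 7.63 (0.52), and Nrf1 at 9.06 and 9.01 (-0.06). The regulators thus did not move as 1 group.

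Ribosomal proteins, which like the subunits are abundant housekeeping products, were also mostly higher in MCAO + exercise. Among 73 kept cytosolic ribosomal protein genes 58 (79.5%) were higher, 4 of them (5.48%) past 1, with a median of 0.31 (0.16 to 0.20 after the rescalings). Among 74 kept mitochondrial ribosomal protein genes 55 (74.3%) were higher, 2 of them (2.70%) past 1, with a median of 0.30 (0.19 to 0.26). Of all kept genes 53.5% were higher, 3.77% by more than 1. Of those with a mean log2 level of at least 8, the shares were 65.3% and 4.94%. The shares past 1 were thus near those of all genes. The upper quartiles of these lists were 0.48 and 0.58, near the median of the respiratory chain subunits (0.57). With 1 array per group, no test of the difference between the lists was possible.

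**Figure D5:**
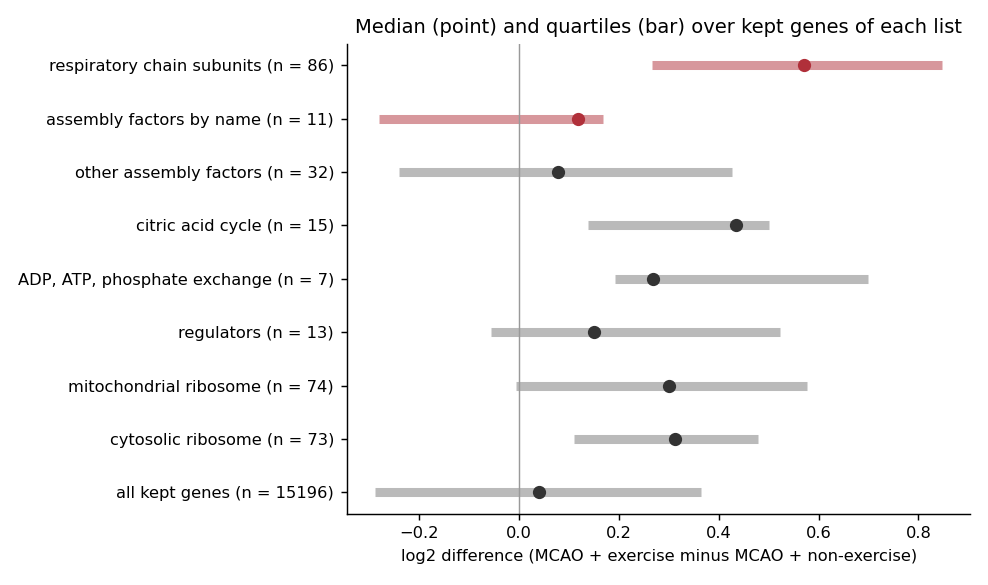
Median (point) and quartiles (bar) of the log2 difference (MCAO + exercise minus MCAO + non-exercise, horizontal axis) over the kept genes of each list (vertical axis), with respiratory chain members in red. The subunits had the highest median (0.57), followed as deposited by the citric acid cycle (0.43), which was below the regulators after quantile normalization and loess, and both groups of assembly factors (0.12 and 0.08) lay close to all kept genes (0.04).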

How the data were processed

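RNA of the sorted cells was measured on 2 arrays, 1 pool per group. A service contracted by the authors normalized both arrays (GCCN-SST-RMA, which corrects for probe GC content, rescales signals and summarizes probes), and the deposited values are linear intensities that run from 5.53 to 999964. Affymetrix Expression Console and RMA are named in the submitters' processing notes, and a genome build is not given in the sources used here. For the 22142 probe sets, log2 of the deposited intensity was taken without further scaling. Of these, 19527 had 1 gene symbol in the platform annotation, 0 had several and 2615 had none. The brightest probe set per gene was used. Background was set per array at the 25th percentile over named probe sets, a log2 of 5.08 (MCAO + non-exercise) and 4.89 (MCAO + exercise), in place of the study's negative control. Where only 1 array was above background, the fold is a lower bound, computed against the other array's background. Brightness depends on the probe set as well as on the RNA, so levels of different genes do not compare their amounts. The number of arrays limits the precision.

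Members and lists were chosen with earlier results of these data known. Named genes were the members in the study's lists, members past 1 or -1, in each complex the brightest and the extreme members, all subunits of complex II, Cyc1, Cycs, the isoform families, the extreme assembly factors and members below background. Other members were named after their values were seen. Promoters were matched by gene identifier. None was at hand for Atp5a1, Atp5mpl, Cox4i1, Cox4i2, Cox6a2, Cox6c, Cox8c, Cyc1, Ndufa2, Ndufa4l2, Ndufaf6, Ndufb9, Ndufs1, Sdhc, Uqcrb, Uqcrc2 and Uqcrq. Alternatives were a background at the 10th percentile, on both arrays or none, median centring, quantile normalization, loess with a span of 0.3, adding 32 before log2, averaging the probe sets of a gene, updating symbols and leaving out the study's listed members, and, added after the values were seen, leaving out members with a named pseudogene copy or the tissue isoforms with Ndufa4l2. The steps were tested on simulated data. Python 3.11.15, NumPy 2.4.6, pandas 2.3.3, statsmodels 0.14.6 and matplotlib 3.10.9 were used.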

Additional observations from a re-analysis of the deposited data

How the results depend on the processing

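The sign of each complex's median was kept under the background, scaling, offset and probe set alternatives, and its size depended on the scaling. Median centring over the kept genes lowered all differences by 0.11 and put the median of all kept genes at -0.07, with 433 genes higher and 575 lower by more than 1, against 573 and 359. The medians were then 0.43 for complex I, 0.37 for complex II, 0.28 for complex III with cytochrome c, 0.65 for complex IV, 0.63 for complex V, 0.41 for all members, 0.46 for the subunits and 0.010 for the assembly factors. Quantile normalization gave 0.38, 0.28, 0.27, 0.58 and 0.62 for the complexes in the same order, 0.37 for all members and 0.012 for the assembly factors. A loess correction by mean level gave 0.39 for complex I, 0.30 for complex II, 0.61 for complex IV, 0.40 for all members and -0.0074 for the assembly factors, whose direction is therefore not settled. An offset of 32 gave 0.62 for complex V. The number of members that were higher in MCAO + exercise was 84, and 78 after centring, 75 after quantile normalization and 74 after loess. Of the 14 members past 1 or -1, 10 stayed past it in all 8 settings. Atp5j (0.91 and 0.92) was under 1 after quantile normalization and loess, Cox5b (0.92, 0.83 and 0.86) and Ndufb4b (0.91, 0.80 and 0.82) after centring, quantile normalization and loess, and Uqcr11 (0.84) with the offset. Without the members in the study's lists, 6 were higher by more than 1. Without the tissue isoforms, an alternative chosen after the values were seen, 0 were lower by more than 1. Updated symbols changed neither the median of all members nor their counts past 1 and -1. No paired analysis was possible because each group has 1 array. Cox7b2 and Ndufv3 were above background on 1 array only, so only bounds are given.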

Other observations

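Mitochondrial genes outside the respiratory chain were also read from 2 lists that were chosen after values were seen. For comparison, 53.5% of all kept genes were higher in MCAO + exercise. Of kept genes with a mean log2 level of at least 8, 65.3% were higher, with a median of 0.16. Of 24 kept genes of the Tomm and Timm translocases, which import proteins into mitochondria, 18 (75%) were higher in MCAO + exercise, none by more than 1, with a median log2 difference of 0.21. Timm17a, a channel subunit of the inner membrane translocase, was at 9.52 and 10.36 (0.84), and Timm50, its receptor for preproteins, at 7.59 and 7.20 (-0.39). Of 11 genes that shape the cristae, the folds that hold the respiratory chain, 9 were higher, none by more than 1, with a median of 0.19. Micos10, a small subunit of the complex at crista junctions, was at 15.21 and 15.61 (0.40), and Opa1, a fusion GTPase, at 10.95 and 11.13 (0.18).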
